A study of Mus musculus with 5 samples.

Results

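The regulators of G protein signalling described here are 8 mouse genes, Rgs1, Rgs2, Rgs3, Rgs10, Rgs14, Rgs16, Rgs18 and Rgs19, taken by symbol from the 57186 annotated gene IDs of each table. Each symbol matched 1 gene ID. RNA came from spleen T follicular regulatory (Tfr) cells, which carry Foxp3 and restrain B cell follicles from within. They were sorted as live CD4+ Foxp3+ CXCR5+ PD-1+ ICOS+ cells. All mice had been given imiquimod, which activates TLR7, and were sampled 21 days later. The 3 WT libraries came from mice with a Foxp3-GFP reporter. The 2 Cebpa_KO libraries came from Foxp3-Cre Cebpa-flox/flox mice, in which Cre driven by Foxp3 removes Cebpa wherever Foxp3 is expressed. Cebpa codes for C/EBP alpha, a DNA-binding regulator of transcription. Foxp3 itself thus carried another allele in each group. The age of the mice is not in the labels. Each library was a pool of cells of several mice, so that p-values measure the spread between pools.

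RGS proteins switch off signals of G protein coupled receptors. A receptor such as CXCR4 or CXCR5 loads the alpha subunit of its G protein with GTP, and the RGS domain speeds the hydrolysis of that GTP, which ends the signal. In lymphocytes the family is known for tuning how strongly a cell answers chemokines and sphingosine 1-phosphate, and thereby where it moves and how long it stays. Rgs1, Rgs2, Rgs3, Rgs16 and Rgs18 belong to the R4 subfamily, mostly small proteins made of little more than the RGS domain. Rgs10 and Rgs14 belong to the R12 subfamily, and Rgs19 to the RZ subfamily.

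Both R12 genes among the 8 fell in Cebpa_KO, Rgs10 by 2.66 times and Rgs14 by 1.71 times. Rgs3 fell too, by 3.36 times as gene TPM and 1.61 times as read coverage. These 3 calls ended when either Cebpa_KO library was left out. None of the 7 members tested rose in the main fit of all libraries. Without WT replicate 3, Rgs1, Rgs2 and Rgs16 passed as higher, and Rgs2 did so in other alternatives given below. Rgs1, Rgs2 and Rgs16 stood at levels in WT replicate 3 unlike those in WT replicates 1 and 2, and their comparison turned on that library. Rgs19 stood at similar levels in all libraries, and Rgs18 was near 0.

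The libraries were alike in depth, at 6.76 to 7.08 gigabases aligned. Values are TPM, transcript abundances corrected for transcript length and depth, after scaling of each library. Spreads are SD (WT n = 3, Cebpa_KO n = 2). Cebpa was at 12.9, 17.7 and 12.8 in the WT pools, against 0.317 and 0.550 in Cebpa_KO (limma, adjusted p = 0.00371). All 8 markers of the sort and of T cells, among them Cd3e, Cd4, Pdcd1 and Cxcr5, were present, and 5 of them fell in Cebpa_KO. Foxp3 was 98.3 ± 13.4 in WT but only 6.16 ± 0.821 in Cebpa_KO. A sum of 4 Y-linked genes was 151.4 to 162.3 in WT and 0 to 0.0311 in Cebpa_KO, so the sex of the mice, the Foxp3 allele and the Cebpa genotype cannot be told apart. WT replicate 3 stood apart from the other WT libraries: the summed level of 12 stress and immediate early genes was 1150.3 and 1253.4 in WT replicates 1 and 2, 5627.7 in WT replicate 3, and 6107.6 and 6530.4 in Cebpa_KO.

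**Figure D1:**
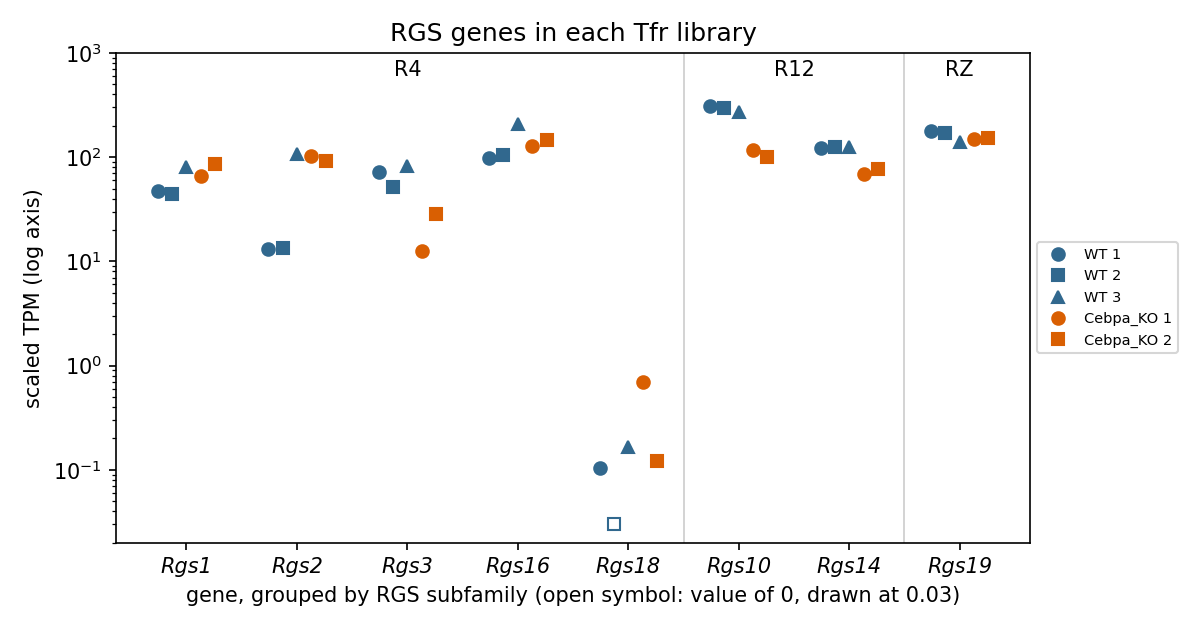
Scaled TPM on a log axis (vertical) of each RGS gene (horizontal) in each library, with WT in blue and Cebpa_KO in orange. Rgs10, Rgs14 and Rgs3 show both Cebpa_KO libraries below all WT libraries, while for Rgs2 the point of WT replicate 3, at 108.4, lies with Cebpa_KO.

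In WT the order of the levels was led by Rgs10, at 268.5 to 309.4, apart from all the others. Rgs19, Rgs16 and Rgs14 followed with means of 163.1, 137.0 and 125.3, and neighbours in that order overlapped. Rgs3 and Rgs1 came next, at 68.6 and 57.5, and also overlapped. Rgs2 had a mean of 45.1 but ran from 13.2 to 108.4, across the ranges of both. Rgs10 lay above 96.7% of the 16254 genes tested by its WT mean, and Rgs2 above 74.8%. In Cebpa_KO the order was Rgs19, Rgs16, Rgs10, Rgs2, Rgs1, Rgs14 and Rgs3, with means of 150.9, 137.6, 109.1, 97.2, 75.4, 73.1 and 20.4. There the ranges of Rgs10 and Rgs2 overlapped, as did those of Rgs1 and Rgs14.

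Across all genes, limma called 19.7% in either direction, 9.93% higher and 9.82% lower in Cebpa_KO, at a Benjamini-Hochberg adjusted p under 0.05. Among the members 7 passed the filter (TPM 1 or more in 2 or more libraries), and each of them was above it in both groups. Of the 7, 3 fell (42.9%), none rose and 4 did not pass, and their median log2 difference was -0.10 beside 0.01 for all genes tested. The groups did not overlap in those 3 members, Cebpa_KO being lower, where 28% of all genes tested had both Cebpa_KO libraries below every WT library, 28.7% had them above and 56.7% had either. With WT replicate 3 left out, 3 members fell and 3 rose, beside 11.5% and 13.7% of all genes. In bulk RNA, fewer cells that express a gene and less RNA of it per cell cannot be told apart.

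Sequence before the start site was looked at because the deleted gene codes for a DNA-binding factor, and because Rgs2 is known to be induced by cyclic AMP. RefSeq promoters of build GRCm38.p6, another build than that of the tables, matched 5 of the 8 members with 8 start sites. The 250 bases before 4 of those starts are given 5′ to 3′, with 3 motifs searched on both strands: TTGCNNAA for C/EBP factors, TGACG as the core of the cyclic AMP response element and TGANTCA for AP-1. Capitals mark every match, and the motifs overlapped nowhere in these 4 windows. The first is Rgs2 (chr1:144004150-144004399, minus strand), then both Rgs3 starts (chr4:62559597-62559846 and chr4:62619422-62619671, plus strand) and Rgs10 (chr7:128418173-128418422, minus strand).
Rgs2: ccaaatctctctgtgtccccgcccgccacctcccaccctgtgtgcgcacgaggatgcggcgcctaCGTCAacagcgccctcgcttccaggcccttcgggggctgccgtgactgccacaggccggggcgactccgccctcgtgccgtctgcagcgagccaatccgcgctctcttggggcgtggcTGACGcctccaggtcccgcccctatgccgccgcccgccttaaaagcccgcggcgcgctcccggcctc
Rgs3 upstream start: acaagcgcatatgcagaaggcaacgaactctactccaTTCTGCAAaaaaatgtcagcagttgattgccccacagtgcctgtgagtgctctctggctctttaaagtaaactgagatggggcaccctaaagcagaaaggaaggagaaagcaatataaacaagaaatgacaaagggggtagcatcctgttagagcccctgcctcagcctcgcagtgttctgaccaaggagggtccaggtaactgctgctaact
Rgs3 downstream start: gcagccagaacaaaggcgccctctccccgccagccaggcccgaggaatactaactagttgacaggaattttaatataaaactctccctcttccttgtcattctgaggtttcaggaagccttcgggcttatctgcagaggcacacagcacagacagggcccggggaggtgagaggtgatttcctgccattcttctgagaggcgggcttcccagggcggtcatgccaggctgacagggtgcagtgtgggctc
Rgs10: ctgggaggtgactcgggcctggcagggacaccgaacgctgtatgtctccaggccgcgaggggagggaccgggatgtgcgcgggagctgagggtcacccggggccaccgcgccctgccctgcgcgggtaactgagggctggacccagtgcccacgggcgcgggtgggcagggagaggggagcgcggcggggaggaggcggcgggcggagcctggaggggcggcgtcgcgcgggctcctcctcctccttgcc
Of 32851 promoters of the same length in that table, 9.56% held TTGCNNAA, 17.8% held TGACG and 6.75% held TGANTCA. Among the 8 member promoters, 1 held the first (upstream start of Rgs3), 1 the second (Rgs2, with 2 matches) and none the third. A match is only a run of letters, and no binding was measured. Beside these, the Rgs10 window had a GC content of 76.4%, the Rgs2 window 72.4% and the upstream Rgs3 window 48.4%.

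Rgs10 (ENSMUSG00000030844, chromosome 7, 127975345 to 128020482, positions in mm39 here and for the other members) codes for a short protein that acts on inhibitory (Gi-type) alpha subunits. It stood at 309.4, 294.4 and 268.5 in the WT pools, against 117.7 and 100.6 in Cebpa_KO. The libraries within each group lay close together, and the gap between the groups was wide. The log2 difference was -1.41 (SE 0.11; limma, adjusted p = 0.00543), and 154 of the 16254 genes tested had a lower one. Left without Cebpa_KO replicate 1 or 2, the difference was -1.51 or -1.29, and the adjusted p 0.0575 or 0.0703. Against WT replicate 3 alone it was -1.30 (limma, adjusted p = 0.0409). The gene model Gm15503 lies inside Rgs10 on the same strand and stood at 2.84 to 5.90 in WT and at 0.892 and 1.51 in Cebpa_KO, so reads of the pair may not be fully separated. The Rgs10 promoter printed above held none of the 3 motifs.

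Rgs14 (ENSMUSG00000052087, chromosome 13, 55517545 to 55532500) codes for a larger scaffold that joins an RGS domain to Ras-binding domains and a GoLoco motif, which holds inhibitory alpha subunits in their GDP form. Its WT values were 123.2, 126.1 and 126.5, and its Cebpa_KO values 69.5 and 76.7. With a WT SD of 1.8, it varied least of the 7 tested members among WT libraries. The log2 difference was -0.77 (SE 0.08; limma, adjusted p = 0.00725). That value stayed between -0.84 and -0.70 in all alternatives run, but the adjusted p was 0.0766 without Cebpa_KO replicate 1 and 0.0739 without Cebpa_KO replicate 2.

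Rgs10 and Rgs14 together summed to 432.6, 420.4 and 395.0 in the WT pools, against 187.2 and 177.3 in Cebpa_KO. They made up 51.4%, 52.1% and 39.0% of the summed TPM of the 8 members in WT, and 29.0% and 26.0% in Cebpa_KO. For the R4 members those shares were 27.5%, 26.7% and 47.1% in WT, and 47.8% and 51.8% in Cebpa_KO. WT replicate 3 was thus near the Cebpa_KO libraries in its R4 share and between the groups in its R12 share. The total over the 8 members was 842.1, 806.7 and 1013.0 in WT and 646.1 and 682.1 in Cebpa_KO.

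**Figure D2:**
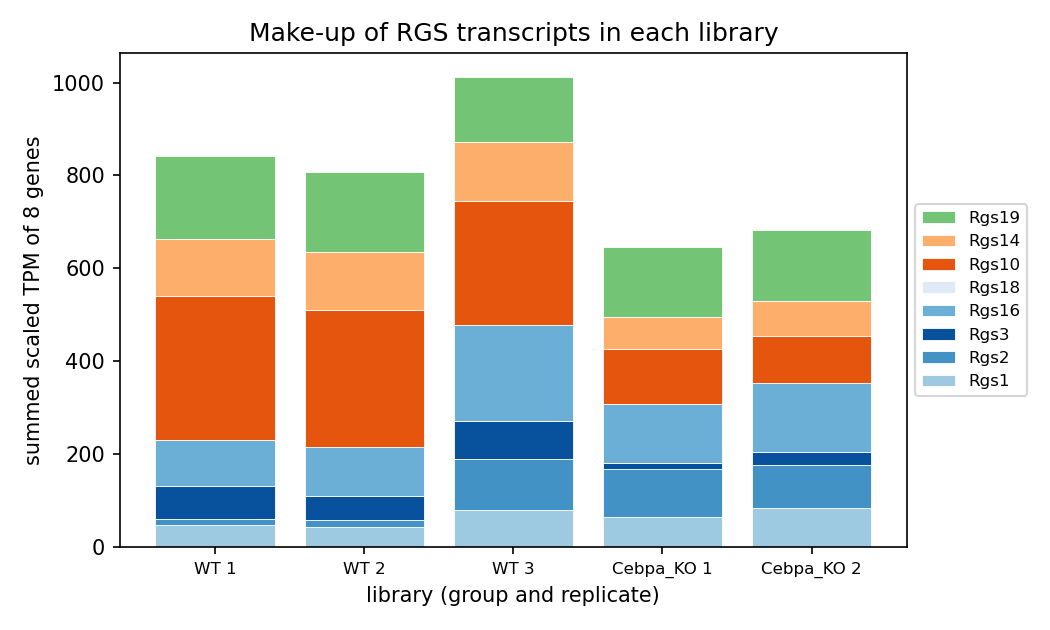
Stacked bars of the scaled TPM of the 8 RGS genes (vertical, starting at 0) in each of the 5 libraries (horizontal), with R4 genes in blues, R12 genes in oranges and Rgs19 in green. The orange part shrinks from between 395.0 and 432.6 in WT to 177.3 and 187.2 in Cebpa_KO, and the blue part is large in WT replicate 3 as well as in Cebpa_KO.

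Rgs3 (ENSMUSG00000059810, chromosome 4, 62478084 to 62622238) codes for several proteins that share the RGS domain at their end and differ in how far they extend before it. Gene TPM was 71.3, 52.0 and 82.4 in WT and 12.5 and 28.3 in Cebpa_KO. All WT libraries lay above both Cebpa_KO libraries, which themselves differed by more than 2 times. The log2 difference was -1.78 (SE 0.37; limma, adjusted p = 0.03), and 63 of the genes tested had a lower one. It was the least stable of the 3 calls, as the adjusted p lay above 0.05 without WT replicate 1 (0.0818), WT replicate 2 (0.0661), Cebpa_KO replicate 1 (0.116) or Cebpa_KO replicate 2 (0.0739).

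The size of the Rgs3 difference depended on the measure. Mean read depth per base of the gene, scaled by library, was 7.56, 7.59 and 9.46 in WT and 4.99 and 5.19 in Cebpa_KO. By that coverage Rgs3 was 1.61 times lower, against 3.36 times by gene TPM, although it still passed (limma, log2 difference -0.59, adjusted p = 0.0346). The locus that was assembled from each library's own reads gave unscaled TPM of 98.5, 94.1 and 121.1 in WT and 38.5 and 58.3 in Cebpa_KO, 2.16 times lower (limma, log2 difference -1.12, adjusted p = 0.0445). TPM divided by coverage was 9.43, 6.85 and 8.71 for Rgs3 in WT and 2.51 and 5.46 in Cebpa_KO. For the other members that ratio lay between 0.629 and 1.28. Of 16240 genes compared, 0.844% had folds by TPM and by coverage that parted by at least 2 times, and Rgs3 was among them at 2.08. Whether the mixture of Rgs3 transcripts differed was not tested, since the tables hold gene values. Both Rgs3 starts printed above lie in the same gene, and the tables do not part them. The gene Gm11209 overlaps Rgs3 on the other strand at 1.49 to 3.05.

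**Figure D3:**
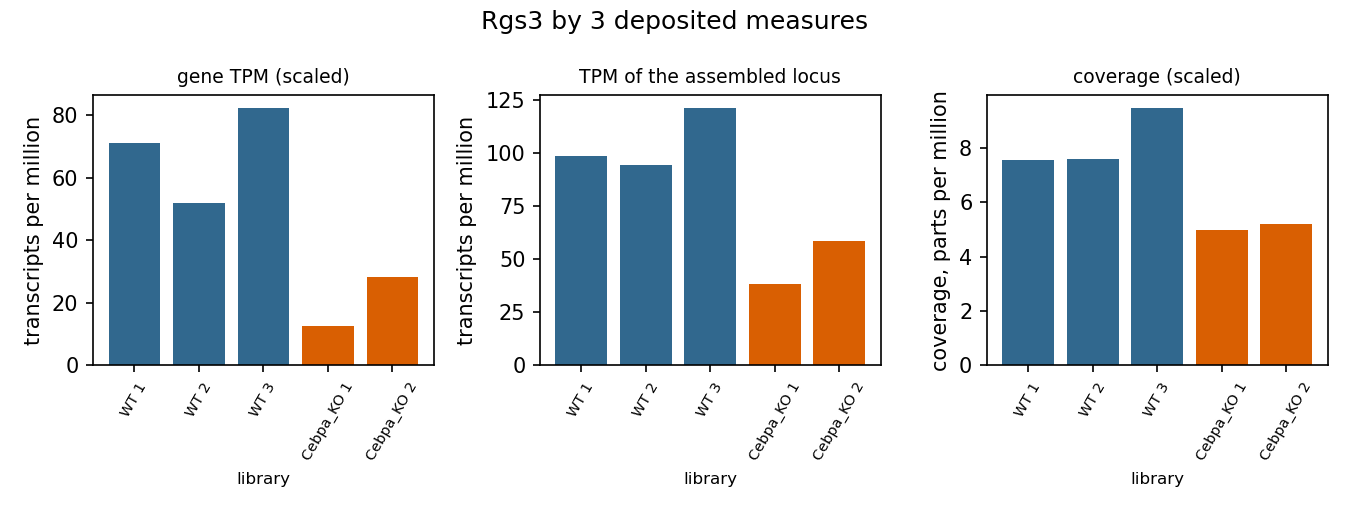
Bars from 0 of Rgs3 in each library (horizontal), as scaled gene TPM, as unscaled TPM of the locus assembled from that library and as scaled coverage (vertical axes). Cebpa_KO, in orange, is lower in all 3 panels, by 3.36, 2.16 and 1.61 times.

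Rgs2 (ENSMUSG00000026360, chromosome 1, 143875076 to 143879899) acts mainly on the Gq alpha subunit and is known as a gene that cells switch on quickly after stimulation. Its promoter, printed above, is the one with the 2 TGACG matches. It stood at 13.2, 13.5 and 108.4 in the WT pools, against 102.0 and 92.3 in Cebpa_KO. WT replicates 1 and 2 were low, whereas WT replicate 3 was higher than either Cebpa_KO library. The log2 difference over all libraries was 1.79, its 95% interval from -0.57 to 4.16, and it did not pass (limma, adjusted p = 0.225). Without WT replicate 3, the log2 difference of Rgs2 was 2.77 with a standard error of 0.09, a rise (limma, adjusted p = 0.00208). With WT represented by replicate 3 alone the difference was -0.16 (limma, adjusted p = 0.303). WT replicate 3 was 8.11 times the mean of the other WT libraries, and 2.51% of genes tested stood at 4 times or more in that comparison.

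Rgs1 (ENSMUSG00000026358, chromosome 1, 144118034 to 144124980) dampens chemokine and sphingosine 1-phosphate receptors in B and T cells. Its values were 47.8, 44.2 and 80.5 in the WT pools, against 65.7 and 85.2 in Cebpa_KO. The ranges of the groups overlapped through WT replicate 3. The log2 difference was 0.42, with a 95% interval from -0.29 to 1.14 (limma, adjusted p = 0.327). It was 0.69 when WT replicate 3 was left out, which passed (limma, adjusted p = 0.0335), and -0.11 with WT represented by replicate 3 alone (adjusted p = 0.709).

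Rgs16 (ENSMUSG00000026475, chromosome 1, 153616095 to 153621214) is induced in activated T cells and limits their response to chemokines. It stood at 98.8, 106.0 and 206.1 in the WT pools, against 127.8 and 147.3 in Cebpa_KO. Both Cebpa_KO libraries lay between WT replicates 1 and 2 below and WT replicate 3 above. The group means were 137.0 and 137.6, and the log2 difference was 0.09 (95% interval -0.75 to 0.92; limma, adjusted p = 0.870). Rgs16 rose by 0.42 without WT replicate 3 (limma, adjusted p = 0.0435). With WT represented by replicate 3 alone it stood at -0.59 (adjusted p = 0.0705). The antisense gene Gm28513 overlaps Rgs16 at 1.46 or less.

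Stress and immediate early genes stood high in the same libraries as these 3 members. WT replicate 3 was above both other WT libraries in 12 of 12 such genes, and both Cebpa_KO libraries were in 11 of 12. Fos, a transcription factor made within minutes of stimulation, stood at 48.2, 66.8 and 618.8 in the WT pools, against 582.9 and 616.9 in Cebpa_KO. Dusp1, a phosphatase that shuts off MAP kinases, stood at 201.5, 215.2 and 1168.7 in the WT pools, against 829.9 and 981.9 in Cebpa_KO. Atf3, also a stress-induced transcription factor, was below 1 in all WT libraries and at 8.27 and 7.5 in Cebpa_KO, and it was the 1 gene of this list that passed (limma, adjusted p = 0.00715). The 1 gene of the 12 that was not higher in both Cebpa_KO libraries was Egr1, at 149.9 to 189.8 in the WT pools, against 124.5 and 123.4 in Cebpa_KO. For Rgs10 and Rgs14, WT replicate 3 stood at 0.89 and 1.02 times the mean TPM of the other WT libraries. Rgs10 was also lower there as scaled coverage, at 225.0 against a mean of 265.4, and as the assembled locus, at an unscaled TPM of 305.2 against 405.4. The part of stress and handling in the levels of the RGS genes was not tested.

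**Figure D4:**
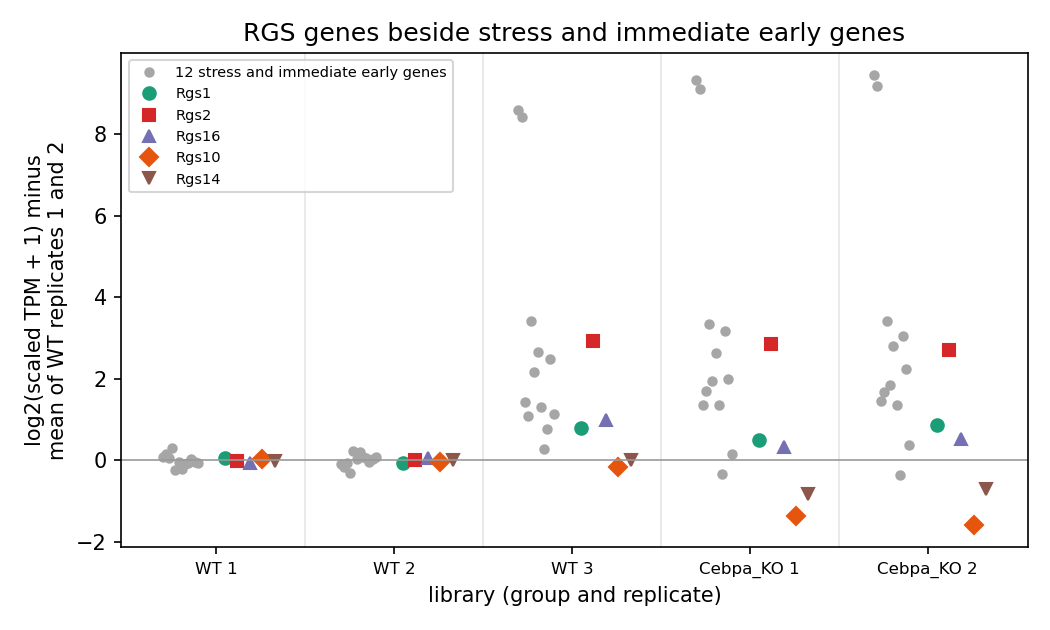
Log2(scaled TPM + 1) minus the mean of WT replicates 1 and 2 (vertical) in each library (horizontal), for 5 RGS genes in colour and for 12 stress and immediate early genes in grey. Rgs2 lies among the grey points in WT replicate 3 and in Cebpa_KO, while Rgs10 and Rgs14 are near 0 in WT replicate 3 and below 0 in Cebpa_KO.

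B cells and myeloid cells can also hold Rgs1 and Rgs2. The 8 B cell markers summed to 134.1 to 184.6 in the WT pools, against 259.0 and 55.8 in Cebpa_KO, and all 8 were higher in Cebpa_KO replicate 1 than in replicate 2. Likewise 12 myeloid markers summed to 157.6 to 251.1 in the WT pools, against 496.7 and 188.3 in Cebpa_KO. Among the 11 of them that were tested, 2 had both Cebpa_KO libraries above every WT library, 1 (Itgam) had both below, and none passed. Those 2 were Mpo, at 1.77 to 6.12 in WT and 50.8 and 10.6 in Cebpa_KO, and Elane, at 2.32 to 3.07 and 53.6 and 5.15. No B cell or myeloid marker was at 0 in any library. Erythroid genes summed to 61.5 to 724.7 in the WT pools, against 2214.3 and 242.9 in Cebpa_KO, plasma cell genes to 210.6 to 821.7 and to 459.1 and 279.0, and NK cell genes to 279.6 to 703.2 and to 394.5 and 497.7. Most of the NK sum came from Nkg7, whose groups overlapped, as did those of Klrk1, Gzma and Eomes. By contrast, Klrb1c fell from a WT mean of 35.0 to a Cebpa_KO mean of 10.4 (limma, adjusted p = 0.0055). The Ncr1 mean dropped from 1.32 to 0.222, with both Cebpa_KO libraries below every WT library, but did not pass (limma, adjusted p = 0.0573). All 7 erythroid genes and all 6 plasma cell genes were higher in WT replicate 3 than in the other WT libraries. The part of such cells in the RGS values was not tested.

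Rgs18 (ENSMUSG00000026357, chromosome 1, 144628421 to 144651173) is an RGS gene of platelets and their precursors. It was at 0.103, 0 and 0.165 in the WT pools, against 0.697 and 0.121 in Cebpa_KO, with a mean read depth of at most 2.1 per base, and did not pass the filter. Cebpa_KO replicate 1 was the highest. The 7 megakaryocyte and platelet markers, such as Pf4 and Itga2b, summed to 1.58 to 2.16 in the WT pools, against 3.97 and 1.98 in Cebpa_KO, highest in the same library, with none of the 7 genes passing the filter. Gp6, a collagen receptor of platelets, was at 0 in all libraries but WT replicate 2.

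Rgs19 (ENSMUSG00000002458, chromosome 2, 181330212 to 181335770), also named GAIP, binds inhibitory alpha subunits at membranes. It was at 178.3, 170.5 and 140.3 in the WT pools, against 150.2 and 151.5 in Cebpa_KO, which lay inside the WT range. The log2 difference was -0.10 with a 95% interval from -0.41 to 0.20 (limma, adjusted p = 0.567). In no alternative did it pass, and its adjusted p lay between 0.0815 and 0.847. It was the highest of the members in Cebpa_KO.

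**Figure D5:**
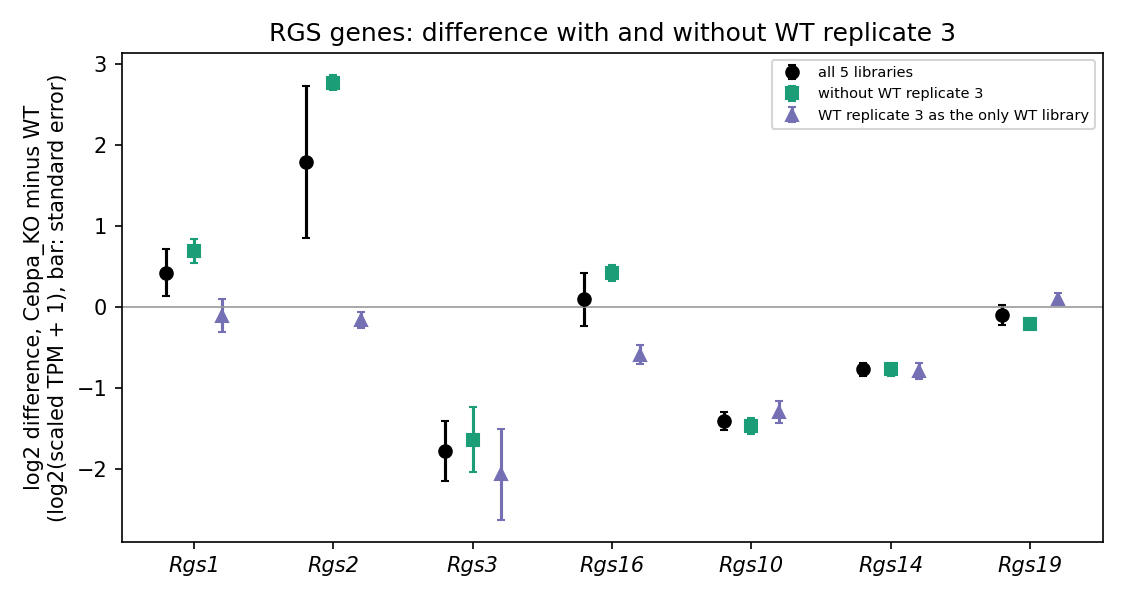
Log2 difference of Cebpa_KO minus WT with its standard error (vertical) for the 7 tested RGS genes (horizontal), with all libraries, without WT replicate 3 and with WT represented by replicate 3 alone. Rgs3, Rgs10 and Rgs14 are below 0 in all 3 settings, whereas Rgs2 goes from 2.77 to -0.16 with the choice of WT library.

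Rgs2, Rgs1 and Rgs18 lie close together on chromosome 1, with Rgs13 and Rgs21 between them, and yet ran from near 0 to more than 100 in these pools. Rgs1 is 238.1 kb from Rgs2 and 503.4 kb from Rgs18. Rgs13, a gene of germinal centre B cells 64.9 kb from Rgs1, was at 0.0241 to 0.0686 in the WT pools, against 0.285 and 0.0274 in Cebpa_KO, and Rgs21 was listed at 0 throughout. Rgs8, 40.0 kb from Rgs16, was at 0.174 or less.

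Other RGS genes were mostly silent. Of 15 further family members and anchors, 3 passed the filter, and 3 were listed at 0 in all libraries. Rgs11, whose protein pairs with the G protein subunit beta 5, was at 9.34, 10.7 and 9.61 in the WT pools, against 5.83 and 4.36 in Cebpa_KO, a fall of 0.85 in log2 units (limma, adjusted p = 0.0245). That call held without WT replicate 3 but ended without WT replicate 1 or 2 (limma, adjusted p = 0.0553 and 0.0783). It also ended with no filter (limma, adjusted p = 0.0683) and with a replicate block (limma, adjusted p = 0.0663). Without Cebpa_KO replicate 1 or 2, the call ended at log2 differences of -1.02 and -0.67. With WT represented by replicate 3 alone, it ended at -0.82. Of the 3 tested, 1 fell (33.3%) and none passed as higher, beside 9.82% lower and 9.93% higher among all genes tested. The rest of the 15 did not pass the filter and could not be called either way.

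Of the G proteins on which RGS proteins act, 33 subunits and direct regulators were looked up and 25 were tested. Of the 25, 5 fell (20.0%, beside 9.82% of all genes tested), none rose and 20 did not pass. Their median log2 difference was -0.15. Gnai2, the main inhibitory alpha subunit of lymphocytes, stood at 1139.8, 1145.6 and 1044.4 in the WT pools, against 855.8 and 854.0 in Cebpa_KO, a fall of 0.37 (limma, adjusted p = 0.0372). Gna12, an alpha subunit, fell by 0.68, Gna14, of the Gq class, by 0.89 and Gpsm3, a GoLoco protein that binds inhibitory alpha subunits, by 0.70. Gnai3, a further inhibitory subunit, was at 139.7 to 164.2 in the WT pools, against 142.7 and 142.9 in Cebpa_KO (adjusted p = 0.469). Without WT replicate 1 or 2 the count was 2 falls each, and 0 without Cebpa_KO replicate 1 or 2.

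Receptors of lymphocyte migration held 8 falls (42.1% of those tested) and 1 rise (5.26%), beside 9.82% and 9.93% of all genes tested. Of 22 genes 19 were tested and 10 did not pass, with a median of -0.48 beside 0.01 for all genes. Cxcr4, the receptor of CXCL12, was at 82.1, 68.3 and 81.5 in the WT pools, against 14.8 and 12.6 in Cebpa_KO, a fall of 2.41 that passed in all alternatives run (limma, adjusted p from 0.00162 to 0.0464). Ccr4, S1pr4 and Cxcr5 fell by 1.15, 0.94 and 0.78. Ccr8, a chemokine receptor of regulatory and Th2 cells, was the rise, at 1.04, and no rise passed with no filter, with any library but WT replicate 3 left out or with WT represented by replicate 3 alone. The 8 falls became 3 and 2 without WT replicate 1 or 2, 10 without WT replicate 3, 4 with WT represented by replicate 3 alone, and 1 without Cebpa_KO replicate 1 or 2.

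Receptor kinases and arrestins, the other brake on these receptors, held 4 falls, 66.7% of those tested beside 9.82% of all genes tested. Of 7 genes 6 were tested and none rose, with a median of -0.49. Arrb2, which codes for beta-arrestin 2, was at 232.0, 263.0 and 253.5 in the WT pools, against 169.6 and 178.8 in Cebpa_KO, a fall of 0.51 (limma, adjusted p = 0.0191). Grk6 and Grk2, the kinases that mark active receptors for arrestin, fell by 0.45 and 0.47, and Grk4, at 1.38 to 3.87, by 0.86. Without WT replicate 2 or either Cebpa_KO library none of the 4 passed, and 1 did with WT represented by replicate 3 alone.

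Downstream, 16 of 24 genes of cyclic AMP and phospholipase C signalling were tested, with a median of -0.19. Of the 16, 5 fell (31.2%) and 1 rose (6.25%), beside 9.82% and 9.93% of all genes tested. Pde4b, which degrades cyclic AMP, fell by 0.52, and Adcy7, the adenylyl cyclase with the highest level in the list, by 0.61. By coverage in place of TPM the Pde4b difference was -0.30 and did not pass (limma, adjusted p = 0.164). Pik3r5, a subunit of the PI3 kinase that G beta-gamma activates, fell by 0.79. Prkar2a, a regulatory subunit of protein kinase A, rose from 8.64, 8.87 and 9.30 to 16.0 and 15.5. Without WT replicate 2 or either Cebpa_KO library neither a fall nor the rise of Prkar2a passed, and that rise also did not pass with WT represented by replicate 3 alone (limma, adjusted p = 0.0566). Without WT replicate 3 there were 3 falls and 3 rises.

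For the members that passed, the genes nearest in profile were found by the root mean square difference of centred log2 values over the 5 libraries, among 8814 other protein-coding genes. Nearest to Rgs10 were H2-Q2, of a gene family whose near copies can share reads, at a difference of 0.06, and Ccdc126, at 0.066. Nearest to Rgs14 were Usp28, a deubiquitinase, at 0.028 and Pgghg, at 0.031. Rgs3 had no neighbour as close: Pvrig, an inhibitory receptor of lymphocytes, was at 0.273 and Myo1f, a class I myosin, at 0.308. These likenesses rest on 5 libraries in 2 groups.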

How the data were processed

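Each library has a table of annotated genes and of loci assembled from its own reads. Build mm39, StringTie 2.1.3b and STAR 2.7.11b appear in the submitters' processing notes. Annotation release and strand setting: not given in the sources used here. Per the file headers the authors deposited coverage, FPKM and TPM. The deposited TPM column is treated as a score, since annotated genes (96.7% to 97.6% of 1000000) and assembled loci (1000000) both fill it. The FPKM that the authors deposited served, with coverage, a deposited signal of read depth per base, to find the aligned depth. No read counts were used here, so no counting intervals are given.

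TPM was added up per gene ID. Library factors (0.984 to 1.04) were median ratios to the geometric mean over genes that reached TPM 1 in every library. Genes that reached TPM 1 in 2 or more of the 5 libraries were tested on log2(scaled TPM + 1), a scale that understates changes of low genes, with limma 3.58.1 in R 4.3.3, an intensity trend and Benjamini-Hochberg adjustment over all genes, threshold 0.05. An exact permutation test of 3 against 2 libraries cannot go below p = 0.1 and was not used. On data simulated for Cebpa_KO against WT with 15649 genes, limma called 69 of 100 genes with a simulated log2 change of 1, 98 of 100 with one of 2, and 13 unchanged genes. The simulated noise was independent between genes and libraries, and no library stood apart as WT replicate 3 did. Only genes well above the floor in WT were changed, and far fewer than were called in the real libraries. These figures therefore need not hold for the real libraries. The named genes are all members, Cebpa, Foxp3, up to 4 called genes per pathway list with the smallest p, the 2 nearest profiles per called member and RGS genes within 1000 kb of a member. Gene types came from GENCODE M21, used without its coordinates. Ccr8, Gnai3 and the marker genes named beside the members were chosen after their values were seen. The members and lists were chosen with earlier results of these data known. The alternatives were pseudocounts of 0.1 and 5, quantile normalization, unscaled TPM, no filter or one at TPM 5, no trend, robust estimation, array weights, each library left out, WT replicate 3 as the only WT library and a replicate block. Coverage in place of TPM and assembled loci (sharing at least 50% of both spans with the gene, same strand) were added after seeing the data. Tables were made with pandas 2.3.3 and numpy 2.4.6, plots with matplotlib 3.10.9.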

Additional observations from a re-analysis of the deposited data

How the results depend on the processing

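Rgs10, Rgs14 and Rgs3 were lower in Cebpa_KO in all 18 alternatives run. With either Cebpa_KO library left out none of the 3 passed, when 25 or 18 genes in all were lower and 9 or 5 higher. Leaving out 1 library at a time gave -1.51 to -1.29 for Rgs10, -0.84 to -0.70 for Rgs14, -2.33 to -1.22 for Rgs3, 0.24 to 0.69 for Rgs1, 1.30 to 2.77 for Rgs2, -0.11 to 0.42 for Rgs16 and -3.54 to -3.27 for Cebpa, which did not pass at -3.54, without Cebpa_KO replicate 2 (limma, adjusted p = 0.0512). Members lower numbered 0 to 3 and members higher 0 to 3 in those fits, genes higher 5 to 2177 and genes lower 18 to 1825. Rgs3 stood at -1.78 with no filter (adjusted p = 0.126) and at -2.07 with WT represented by replicate 3 alone (0.103). In that setting Rgs1, Rgs2, Rgs16 and Rgs19 turned direction, to -0.11, -0.16, -0.59 and 0.10, and 1014 genes were higher and 647 lower. Rgs16, at 0.09 with all libraries, also turned without WT replicate 1 (-0.11), WT replicate 2 (-0.06) and Cebpa_KO replicate 2 (-0.01). With array weights Rgs2 passed at 2.28 (adjusted p = 0.0458), so that 1 member was higher, and 2575 genes were higher and 2440 lower. With no filter 930 were higher and 629 lower, where many more low genes were tested. The replicate numbers are not stated to pair the pools, and the deviations of same-numbered libraries correlated at -0.179 and 0.269. With a replicate block, which rests on the 2 shared numbers, 1359 genes were higher and 1050 lower, 1 member was higher (Rgs2, 2.77) and Rgs3 did not pass (-1.64, adjusted p = 0.0748). In that fit WT replicate 3 has no partner and adds nothing to the difference. Where 1 Cebpa_KO or 1 WT library was left, it was assumed to vary like the other group. The causes were not tested. Without read counts, the precision of low genes such as Rgs18 is not known.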

Other observations

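The R7 subfamily of RGS genes is known from neurons and photoreceptors, where its proteins pair with the G protein subunit beta 5 and are held at membranes by anchor proteins. In these Tfr cells Rgs9 stood at 9.02, 10.5 and 12.4 in the WT pools, against 11 and 9.27 in Cebpa_KO, with a log2 difference of -0.06 (limma, adjusted p = 0.829). Rgs11 was at a similar level in WT and lower in Cebpa_KO, as given above. The partner gene Gnb5 was at 9.45, 9.51 and 10.4 in the WT pools, against 9.09 and 8.36 in Cebpa_KO (limma, log2 difference -0.15, adjusted p = 0.413). The anchor genes Rgs7bp and Rgs9bp stood at 0.0101 or less and at 0.065 or less, and Rgs6 and Rgs7 at 0.0193 or less and at 0. Rgs12, the third R12 gene, was at 2.48, 6.14 and 4.64 in WT and at 7.61 in both Cebpa_KO libraries, opposite in direction to Rgs10 and Rgs14, and did not pass (limma, log2 difference 0.73, adjusted p = 0.160). These genes were chosen after their values were seen.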
